A study of Bos grunniens with 6 samples.

Results

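The entries described here are the cattle miRNAs with late numbers, from miR-11970 to miR-12070. Every row of the deposited table whose cattle name carries a whole number in that range was taken, with no minimum level. The range itself was drawn to hold miR-11986b, whose difference between the cell types was already known. This gave 57 entries of 2853 in the table, of which 757 have cattle names and 2096 are predicted. Of the 101 numbers in the range, 55 have an entry in the table used here. These 55 numbers hold 57 entries because miR-11986 is present in 3 forms, without a letter, b and c. The samples were wild-type yak (Bos grunniens) skin cells in culture. Dermal papilla cells are a mesenchymal cluster that the follicle bulb encloses and that signals to the epithelium. Hair matrix cells are the dividing epithelium next to it, from which the hair is built. Each cell type has 3 libraries, described in the labels as biological replicates, and both were grown in the same medium with serum, IGF1, EGF and antibiotics. The labels name no animals or separate cultures, so p-values reflect only how these libraries vary, which may be technical. The series title gives the question as the miRNA profiles of both cell types.

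A miRNA is cut from a hairpin transcript and guides Argonaute proteins to messenger RNAs, mainly by pairing through its seed, bases 2 to 8. Numbers are given in the order in which sequences are registered, so neighbouring numbers need not share a seed, a locus or a function. A letter after the number marks a closely related sequence. Cattle miRNAs with high numbers come largely from sequencing surveys, and targets are not widely described for them, so no role is stated for single members below.

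The sequences that the results turn on are those of the miR-11986 forms, of the other members that differed between the cell types, and of 2 members that nearly match an abundant miRNA. They are given as in the deposited table, in DNA letters, with the seed in capitals.
miR-11986b: tTTTCCAAtgagttagtccttt
miR-11986: tTGTCCAAtgagttagtcctt
miR-11986c: gAACTGAGtcctttggaaaaga
miR-12005: aTGAAGTCcttaaggggagggt
miR-12028: tGTCTGGGaccccgattctct
miR-12031: aTTGGAGCcagtctgcagaagc
miR-12035: aCACCAGGacttgtctccccaga
miR-12027: tGCCGCGCtgtttccctggtgt
miR-11998: tTCTCTAGtgtgttttcccaac
miR-11982: tTCGGCGCcaccaccctgcgggt
miR-11977: tGTCTCAGttcagcaggaag
miR-24-3p: tGGCTCAGttcagcaggaacag
miR-11971: tGAGGGGCagagagtgagaa
miR-423-5p: tGAGGGGCagagagcgagacttt

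miR-11986b and miR-11986 differ by 1 substitution over 21 aligned bases, T3G from miR-11986b to miR-11986, counted from the 5′ end. This position lies in the seed, so the seeds of these forms differ. miR-11986c cannot be aligned with miR-11986b in this way. Their longest common run is AGTCCTTT, at bases 15 to 22 of miR-11986b and 7 to 14 of miR-11986c. In addition, bases 13 to 20 of miR-11986c, TTGGAAAA, are the reverse complement of bases 1 to 8 of miR-11986b. Of the 2850 entries outside this trio, 6 share a run of at least 8 bases with miR-11986b and 5 hold a run of at least 8 bases of its reverse complement. 

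No 2 of the 57 members share a seed. Only 3 members share theirs with another cattle-named entry of the table, and none of these passed the filter described below. One of them is miR-11971, which has the seed of miR-423-5p. The members are 20 to 24 bases long, with a median of 22. They are richer in G and C than the other cattle-named entries, with a median of 56.5% against 45.5%, and lie between the 54.5% of the cattle-numbered miRNAs miR-2286 to miR-2487 and the 59.1% of the predicted entries. The first base is T in 27 of 57 members (47.4%), against 37.4% of the 700 other cattle-named entries. The better expressed members were less rich in G and C, with a median of 50.0% over the 12 that passed the filter and none of them at 60% or more, a level that 21 of the 57 reached.

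Levels are given in RPM, which scales the reads of an entry to a common library size and not to its length. Library totals were 23904796 to 24693655 reads. Thus 1 RPM stands for about 24 reads, and 3 reads, taken as the floor, for 0.121 to 0.125 RPM, which covers counting error only. All 6 epithelial entries, of the miR-200 family and miR-205, were called higher in hair matrix cells, where they summed to 22064 to 22261 RPM against 82.9 to 107.6 RPM in dermal papilla cells. All 6 mesenchymal entries, of miR-143, miR-145, miR-199a, miR-214 and miR-10b, were called higher in dermal papilla cells, at 91377 to 94282 against 1245 to 1476 RPM. Of 8 entries for endothelium, blood, muscle and liver, 3 passed the filter for limma, and of these the muscle miRNA miR-1 was called, higher in dermal papilla cells. The other 5 were not tested with limma. With edgeR and a filter of 10 reads, added after the data were seen, the muscle miRNA miR-133a (adjusted p = 0.000987) and the endothelial miR-126-5p (adjusted p = 0.0378) were also called higher in dermal papilla cells. miR-133a reached 10 reads in dermal papilla libraries only, so that a difference followed from its passing this filter. The better read miR-126-3p was not called with limma (adjusted p = 0.0788) or with this edgeR run (adjusted p = 0.0856). These 8 summed to 66.4 to 81.95 RPM in dermal papilla and 32.6 to 33.6 RPM in hair matrix libraries, and the part of such cells in the results below was not tested.

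Most late-numbered miRNAs were barely read in these cells, near the background of the whole table. The median of their mean levels was 0.0549 RPM, against 0.0543 RPM for all 2853 entries. It was 1.52 RPM for the other cattle-named entries, 0.172 RPM for miR-2286 to miR-2487 and 0.0344 RPM for the predicted entries. No entry of the table was without a read. Of the 57 members, 18 (31.6%) had at most 3 reads over the 6 libraries together, against 32.4% of all entries, and 31 had fewer than 10. Reads in all 6 libraries were found for 21 members (36.8%), against 30.2% of all entries and 65.9% of the other cattle-named entries. Only 1 member, miR-11986b, averaged 10 RPM or more in either cell type.

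**Figure D1:**
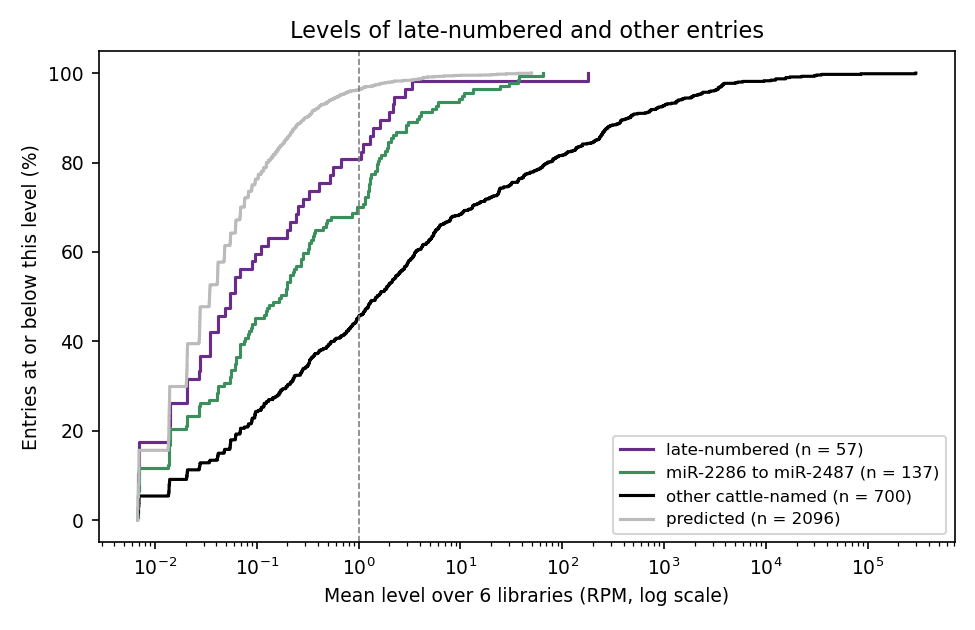
Cumulative percentage of entries (y axis) at or below a mean level over the 6 libraries in RPM (x axis, log scale), for the late-numbered members, the cattle-numbered miRNAs miR-2286 to miR-2487, all other cattle-named entries and the predicted entries; the dashed line is 1 RPM. The members run between the predicted entries and miR-2286 to miR-2487 at most levels under 1 RPM, and a single member stands far to the right, at 179.5 RPM.

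The summed level of all 57 members was far higher in hair matrix cells, and this was the level of miR-11986b. The sum was 18.3, 20.5 and 22.1 RPM in the dermal papilla libraries and 348.7, 406.5 and 404.8 RPM in the hair matrix libraries. miR-11986b made up 6.33% to 10.3% of the dermal papilla sums and 91.5% to 92.99% of the hair matrix sums. Without it, the other 56 members summed to 18.6 ± 1.96 RPM (SD, n = 3) in dermal papilla and 29.3 ± 0.705 RPM (SD, n = 3) in hair matrix cells. Here too there was no overlap, with 16.4 to 20.3 RPM against 28.5 to 29.8 RPM. Most of that difference lay in miR-12005, miR-12028, miR-12031 and miR-11986c, described below, so it does not describe the 56 members as a set. In these bulk samples, fewer cells that make a miRNA and less of it per cell cannot be told apart.

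**Figure D2:**
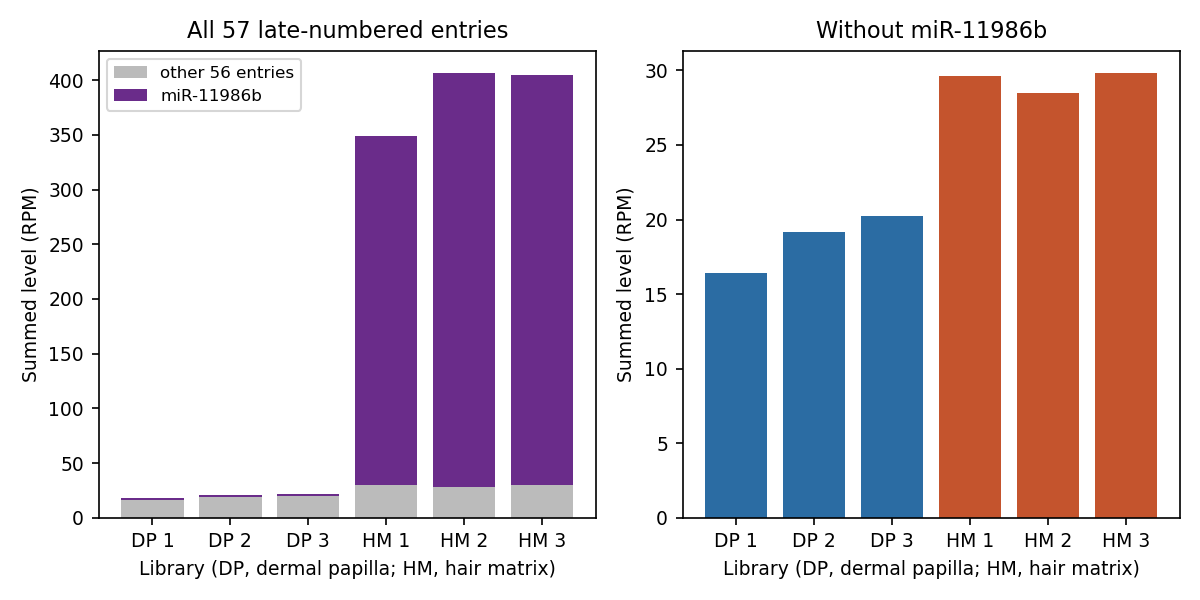
Summed level in RPM (y axis, linear from 0) of all 57 late-numbered entries (left, with miR-11986b in purple) and without miR-11986b (right), in each dermal papilla (DP) and hair matrix (HM) library. On the left the hair matrix bars stand at 348.7 to 406.5 RPM and are almost all miR-11986b, and on the right they stand at 28.5 to 29.8 RPM, above every dermal papilla bar.

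The test was limma on log2(RPM + 1), over entries that reached 1 RPM in 3 or more libraries. A call needed a Benjamini-Hochberg adjusted p below 0.05 together with a 2-fold difference or more. The 12 members that passed were miR-11977, miR-11984, miR-11986b, miR-11986c, miR-11992, miR-11993, miR-11995, miR-11998, miR-12005, miR-12028, miR-12031 and miR-12060. These are 21.1% of the members, against 57.3% of the other cattle-named entries, 31.4% of miR-2286 to miR-2487 and 4.29% of the predicted ones. Of the 12, miR-11986b, miR-11986c, miR-12005 and miR-12028 were called, all 4 higher in hair matrix cells. Over all 503 tested entries, 45.1% were called, 19.9% higher in hair matrix cells and 25.2% higher in dermal papilla cells. No member was called higher in dermal papilla cells with limma, with 1 member, miR-11998, at an unadjusted p under 0.05 in that direction. This member also passed the adjusted threshold in limma, missing only the 2-fold minimum. Both edgeR and DESeq2, run on the same 503 entries, called it higher in dermal papilla cells. It reached 1 RPM in dermal papilla libraries only, so these calls share 1 selection and add no separate support. The median log2 difference, dermal papilla minus hair matrix, was -0.20 over the 12 and -0.01 over all tested entries. It was -0.21 over the tested entries of miR-2286 to miR-2487, -0.37 over the predicted and 0.14 over the other cattle-named entries. Calls higher in hair matrix cells numbered 10, 22 and 74 in these parts, and calls higher in dermal papilla cells 5, 8 and 119. A lean toward hair matrix cells was thus not particular to the late-numbered members. In 3 of the 12 members, miR-11986c, miR-12028 and miR-11998, 1 RPM was reached in 1 cell type only, so that a difference followed from their passing the filter. Their p-values and calls are therefore given as descriptions.

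**Figure D3:**
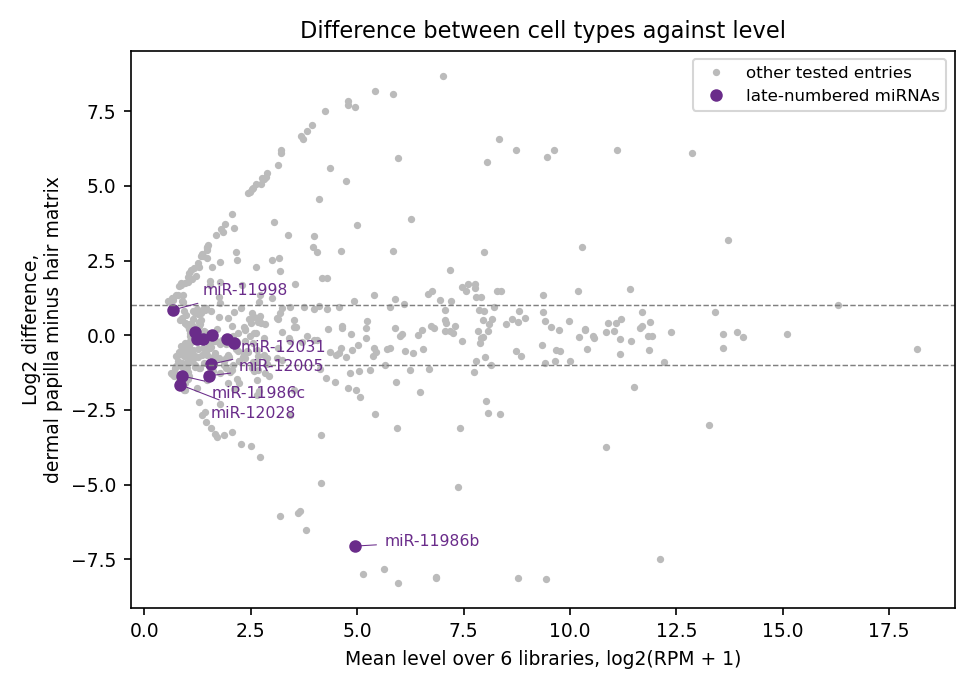
Log2 difference between cell types, dermal papilla minus hair matrix (y axis), against the mean of log2(RPM + 1) over 6 libraries (x axis) for the 503 tested entries, with the 12 late-numbered members in purple; dashed lines mark a 2-fold difference. miR-11986b stands apart at -7.06, and the other 11 members lie at the low end of the level axis with differences between -1.66 and 0.85.

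miR-11986b was the only abundant member, and its reads came almost wholly from hair matrix cells. Its level was 1.88, 1.30 and 1.90 RPM in the dermal papilla libraries, from 45, 31 and 46 reads. In the hair matrix libraries it was 319.1, 378.0 and 375.0 RPM, from 7880, 9256 and 9003 reads. Every hair matrix library lay far above every dermal papilla library. The means were 1.69 ± 0.343 (SD, n = 3) and 357 ± 33.2 RPM (SD, n = 3), a 211-fold difference, with a log2 difference of -7.06 ± 0.118 (SE, limma adjusted p = 2.09e-09). Counted from the largest log2(RPM + 1) difference toward hair matrix cells, it had rank 9 of the 503. A ranking by ratio of means would differ, with miR-141 at 290-fold above it and miR-184 at 179-fold below it. By mean level among all 2853 entries miR-11986b had rank 70 in the hair matrix and rank 373 in the dermal papilla group. The range of numbers was drawn to hold this miRNA with its difference already known, so its value is a description.

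The tested cattle miRNAs outside the range whose profile over the 6 libraries was most like that of miR-11986b were miR-184, miR-141 and miR-429. Likeness was the Euclidean distance of log2(RPM + 1) values centred on each miRNA's own mean, and it was 0.575, 0.843 and 0.967. miR-184 is known from the corneal epithelium, and miR-141 and miR-429 belong to the epithelial miR-200 family. All 3 were higher in hair matrix cells, miR-184 at 331 ± 25.5 against 59426 ± 1342 RPM (SD, n = 3), miR-141 at 0.459 ± 0.153 against 133 ± 5.62 RPM and miR-429 at 2.29 ± 0.478 against 747.9 ± 61.3 RPM. With 2 cell types, likeness of this kind reflects mainly the size of 1 difference.

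The other miR-11986 forms went the same way at far lower levels. miR-11986c was at 0.0837, 0.251 and 0.124 RPM in the dermal papilla libraries, from 2, 6 and 3 reads, and at 2.11, 2.21 and 1.58 RPM in the hair matrix libraries, from 52, 54 and 38 reads. The groups did not overlap. The ratio of means was 12.9-fold, and the log2 difference on the log2(RPM + 1) scale was -1.36 ± 0.111 (SE, limma adjusted p = 1.62e-05). That scale shrinks differences of low entries, and edgeR on whole reads gave -3.67 (adjusted p = 4.58e-05). Because miR-11986c passed the filter through hair matrix libraries only, these p-values are descriptions. miR-11986, under the filter and not tested, had no read in dermal papilla cells and 2, 4 and 3 reads in the hair matrix libraries. This is 2.96-fold higher against a floor of 3 reads over the dermal papilla group, with the hair matrix reads taken as exact. In hair matrix cells the level of miR-11986 was 0.0254% to 0.0432% of that of miR-11986b, from which it differs by 1 base, and reads could be divided between the pair by the authors' counting.

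miR-12028 was read almost only in hair matrix cells. It had 1, 0 and 0 reads in the dermal papilla libraries and 61, 45 and 56 reads in the hair matrix libraries, which is 2.47, 1.84 and 2.33 RPM. The ratio of the summed levels was 159.6, with a 95% exact counting interval of 28.2 to 6341. The log2 difference was -1.66 ± 0.0964 (SE, limma adjusted p = 2.41e-06), and -6.89 with edgeR (adjusted p = 1.06e-05). These p-values are descriptions, because miR-12028 passed the filter through hair matrix libraries only. In this member the dermal papilla level is under the floor in each library, so the size of the difference is known only within that interval, which covers counting error alone.

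miR-12005 was present in both cell types. It was at 0.711, 0.543 and 1.20 RPM in dermal papilla and 3.81, 3.31 and 3.71 RPM in hair matrix libraries, from 17, 13 and 29 against 94, 81 and 89 reads. The groups did not overlap, and dermal papilla replicate 3 was the highest of its group. The means differed 4.42-fold, with a log2 difference of -1.36 ± 0.140 (SE, limma adjusted p = 6.29e-05) and of -2.16 with edgeR (adjusted p = 0.000215). miR-12031 was close to the 2-fold limit, at 0.837, 1.38 and 1.20 RPM in dermal papilla and 2.88, 3.43 and 3.21 RPM in hair matrix libraries. Its ratio of means was 2.79-fold, but its log2 difference of -0.97 ± 0.118 (SE, limma adjusted p = 0.000155) stayed just under the minimum. With edgeR it was -1.50 (adjusted p = 0.00032) and a call, and with median centring of all tested entries it was a call in limma too, at -1.24. It was likewise a call in limma without dermal papilla replicate 2, at -1.05, and without hair matrix replicate 1, at -1.02.

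miR-11998 was the tested member with the clearest difference toward dermal papilla cells. Its level was 1.17, 1.13 and 1.11 RPM there, from 28, 27 and 27 reads, and 0.243, 0.204 and 0.125 RPM in hair matrix cells, from 6, 5 and 3 reads. No library overlapped. The ratio of means was 5.96-fold, but the log2 difference was 0.85 ± 0.0741 (SE, limma adjusted p = 2.44e-05), which is less than 2-fold after the pseudocount of 1. With edgeR the difference was 2.51 (adjusted p = 0.000113) and the member was called. As it passed the filter through dermal papilla libraries only, these p-values are descriptions.

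**Figure D4:**
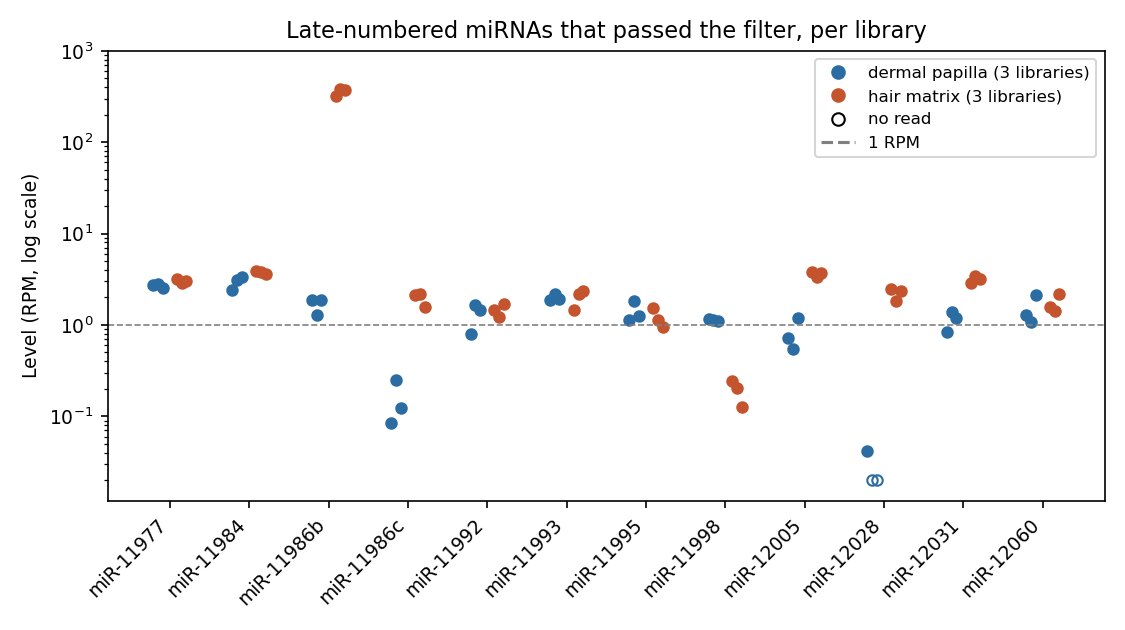
Level in RPM (y axis, log scale) of the 12 late-numbered miRNAs that passed the filter (x axis), 1 point per library, blue for dermal papilla and red for hair matrix; open circles at the bottom are libraries with no read and the dashed line is 1 RPM. miR-11986b alone lies above 10 RPM, miR-11986c, miR-12005, miR-12028 and miR-12031 are higher in every hair matrix library, and miR-11998 is lower in every one.

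The remaining 6 tested members with neither a limma nor an edgeR call were at 0.795 to 3.89 RPM in every library. Those are miR-11977, miR-11984, miR-11992, miR-11993, miR-11995 and miR-12060, with log2 differences of -0.13, -0.27, -0.11, 0.01, 0.11 and -0.13 and limma adjusted p of 0.167, 0.0581, 0.539, 0.97, 0.492 and 0.512. miR-11984, the most abundant of them, was at 2.38, 3.13 and 3.38 RPM in dermal papilla and 3.89, 3.76 and 3.62 RPM in hair matrix libraries. Its groups did not overlap, and its difference missed the threshold. miR-11993 was at 1.88, 2.17 and 1.94 RPM in dermal papilla and 1.46, 2.21 and 2.37 RPM in hair matrix libraries. miR-12060 was at 1.30, 1.09 and 2.14 RPM in dermal papilla and 1.58, 1.43 and 2.17 RPM in hair matrix libraries. Like these, miR-11992 and miR-11995 overlapped between the cell types. Over the 12 tested members, 8 did not overlap, 7 higher in hair matrix and 1 higher in dermal papilla cells, against 84.1% of all tested entries. An adjusted p under 0.05 at any fold was reached by 6 of the 12, against 82.7% of all tested entries.

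miR-11977 nearly matches miR-24-3p, an abundant miRNA of many tissues. Over 20 aligned bases they differ at 2 positions, G3T and C20G from miR-24-3p to miR-11977, so the seeds differ by 1 base. miR-11977 was at 2.72, 2.80 and 2.52 RPM in dermal papilla libraries and 3.16, 2.86 and 3.04 RPM in hair matrix libraries, while miR-24-3p was at 10627 ± 178 and 14328 ± 299 RPM (SD, n = 3). The level of miR-11977 was thus 0.0252% ± 0.00147 of that of miR-24-3p in the dermal papilla group and 0.0211% ± 0.000618 in the hair matrix group (SD, n = 3). miR-11971 matches miR-423-5p, another widely found miRNA, at 18 of 20 bases, with C15T and C20A, and had 1 read over all 6 libraries together, while miR-423-5p was at 919 ± 82.6 and 812 ± 17.8 RPM. Whether reads of the abundant miRNAs enter these entries was not tested, and the rule by which the authors assigned such reads is not known here.

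The other 45 members were under the filter. Of these, 13 had no read in dermal papilla cells, 11 had none in hair matrix cells and 21 were read in both. The highest were miR-12027, miR-11982, miR-12035, miR-11989 and miR-12010, with the last at 0.335, 0.209 and 0.454 RPM in dermal papilla and 0.121, 0.123 and 0.292 RPM in hair matrix libraries, which overlapped. The other 40 averaged at most 0.315 RPM in either cell type. A lower filter of 10 reads in at least 3 libraries was also used, with edgeR on whole reads and after the data had been seen. It took in 16 members, of which 9 were called, 7 higher in hair matrix and 2 in dermal papilla cells, against 57.2% of the 656 entries then tested. With the 12 members alone, edgeR called 5 and 1, against 56.5% of the 503.

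The 4 members added by the lower filter were miR-11982, miR-11989, miR-12027 and miR-12035. Of these, miR-11982, miR-12027 and miR-12035 reached 10 reads in 1 cell type only, so that a difference followed from their passing this filter. Their edgeR p-values are therefore given as descriptions. miR-12035 had no read in any dermal papilla library and 25, 10 and 13 reads in the hair matrix libraries, or 1.01, 0.408 and 0.542 RPM. This is 15.8-fold higher against 3 reads over the dermal papilla group, with the hair matrix reads taken as exact (edgeR adjusted p = 0.00218). miR-12027 was at 8, 9 and 4 reads in dermal papilla and 18, 25 and 17 reads in hair matrix libraries, 2.81-fold higher in hair matrix cells (edgeR log2 difference -1.44, adjusted p = 0.00544). miR-11982 went the other way, with 19, 13 and 20 reads against 6, 9 and 8, 2.29-fold higher in dermal papilla cells (edgeR log2 difference 1.22, adjusted p = 0.00633). miR-11989, with 5, 8 and 13 against 11, 11 and 11 reads, overlapped between the cell types and was not called (edgeR adjusted p = 0.513). Among the 45 members under the filter of 1 RPM, 9 did not overlap between the cell types, 7 higher in hair matrix cells and 2 in dermal papilla cells. Over all 2350 entries under the filter, 19.0% did not overlap, so the members' count is near that background. For 5 of the 9 this rests on no read in dermal papilla cells, and 4 of those 5 had 10 reads or fewer in hair matrix cells.

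The lowest number inside the range is that of miR-11971, described above with its 1 read, and the highest is that of miR-12064. miR-12064 was at 0.0837, 0.0836 and 0.165 RPM in dermal papilla and 0.607, 0.245 and 0.0833 RPM in hair matrix libraries, overlapping between the cell types. The cattle-named entries next below the range were miR-10225a and miR-10225b, and no entry analysed here has a higher number. miR-10225a was at 0, 0.167 and 0.206 RPM in dermal papilla and 76.7, 72.0 and 70.6 RPM in hair matrix libraries. miR-10225b was at 0.0418, 0 and 0 RPM and at 5.59, 5.76 and 5.04 RPM.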

How the data were processed

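Small-RNA libraries of 3 dermal papilla and 3 hair matrix cell samples were prepared with TruSeq small RNA kits, per the labels' protocols. Tools listed in the submitters' processing notes are HISAT2 2.2.1.0, DESeq 1.20.0 and Trimmomatic, with no account of what each did. The build, the source of the miRNA sequences and the treatment of reads with several matches were not given in the sources used here. Deposited values, called TPM by the authors, are RPM: in each library 100% of them correspond to whole reads (within 0.001 read) under 1 scaling factor, whatever the length of the entry. Whole reads were recovered with that factor. Listed entries hold 71.7% to 73.5% of the library totals, and all columns of values were used.

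Values were fitted as log2(RPM + 1) with limma 3.58.1 under R 4.3.3. The only term was cell type, and variances were moderated with a mean trend. Benjamini-Hochberg adjustment ran over all 503 entries that passed the filter, and log2 differences are dermal papilla minus hair matrix. The test had been planned for TPM and was kept. The fit was also run on simulated data, with a spread between replicates that was set and not taken from these libraries. No result here rests on that run. Ratios are of mean RPM, and intervals and floors cover counting error only. Near-identical entries have at least 18 matching bases and at most 2 mismatches without gaps. All tested members were to be named, with library values for called members and the 5 most abundant of each cell type. Under the filter, these were the 5 highest members, relatives of tested ones and the ends of the range, and others were chosen after their values were seen. Alternatives were pseudocounts, filters, scalings, no mean trend, a block for the replicate number, cattle-named entries only, edgeR 4.0.16 and DESeq2 1.42.0 on whole reads, and leaving out each library. The members and lists were chosen with earlier results of these data known. Replicates of a cell type differed by more than counting noise (chi-square per degree of freedom 26.6 to 76.8). Positions in the genome and hairpins were not used here.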

Additional observations from a re-analysis of the deposited data

How the results depend on the processing

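With limma 4 late-numbered miRNAs were called higher in hair matrix cells and 0 in dermal papilla cells, of 227 calls over all entries. A pseudocount of 0.5 gave 5 and 1. A pseudocount of 10 left 1 and 0 of 117 calls, and a filter of 10 RPM left 1 and 0 of 127, in both cases miR-11986b. edgeR and DESeq2 on whole reads each gave 5 and 1, and edgeR with the filter of 10 reads gave 7 and 2 of 375. Leaving out each library gave 2 to 5 calls higher in hair matrix cells, 0 in dermal papilla cells and 166 to 231 over all entries. The low values come from runs in which the filter was applied again, added after the data were seen: without any 1 of the hair matrix libraries, miR-11986c and miR-12028 were no longer tested, which left 3, 2 and 2 calls without replicate 1, 2 and 3. Median centring and quantile normalization moved the median log2 difference of all tested entries from -0.01 to -0.29 and -0.23. The 127 calls higher in dermal papilla and 100 in hair matrix cells became 109 and 137, and 112 and 128, and miR-12031 became a call, at -1.24 and -1.06. miR-11986b was called in all 25 alternatives, at -7.74 to -4.97. No called member changed direction. The replicate block gave 4 and 0 calls of members and 228 in all. Same-numbered libraries of the cell types deviated with correlations of 0.14, 0.08 and -0.27, so the numbers were not taken to pair them. Depth limits most members: 31 of 57 have fewer than 10 reads in all.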

Other observations

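The spread between replicates was compared with counting noise for the tested members. For miR-11986b in hair matrix cells the coefficient of variation over 3 libraries was 9.28%, against 1.07% from counting alone at its mean of reads. For miR-11977 it was 5.45% in dermal papilla and 5.00% in hair matrix cells, against 12.5% and 11.7% from counting alone. For miR-12005 in dermal papilla cells it was 41.5% against 22.5%, and for miR-12060 37.1% against 16.6%. With 3 libraries per cell type these values are rough, and no test was made of them.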
